A study of Mus musculus with 2 samples.

Results

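Genes for matrix metalloproteinases (MMP), membrane-anchored disintegrin metalloproteinases (ADAM), their secreted relatives with thrombospondin repeats (ADAMTS), the ADAMTS-like proteins that lack the protease domain (ADAMTSL) and the tissue inhibitors of metalloproteinases (TIMP) were examined in CT26 cells, a mouse colorectal cancer line of BALB/c origin. The members are all genes whose GENCODE M21 symbol starts with Mmp, Adam, Adamts, Adamtsl or Timp followed by a digit, and the rule itself uses symbols alone, although these families were taken up with earlier results of the data known. The rule was met by 50 of the 24223 genes counted: 15 MMP, 16 ADAM, 11 ADAMTS, 4 ADAMTSL and 4 TIMP genes. A further 34 genes with such symbols in the annotation were not analysed here. The DAC library came from CT26 cells that received decitabine (DAC) at 1 μM every 24 h for 3 days and then spent 24 h in drug-free medium. The Ctrl library came from CT26 cells handled in parallel without the drug. There was 1 library in each group, so no value has a replicate check and no p-value is given.

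Metalloproteinases of these families use a zinc ion to cut proteins. MMPs are mostly secreted as inactive precursors and degrade collagens, laminins and other matrix proteins, while a few are anchored in the cell membrane. ADAMs release the extracellular parts of membrane proteins such as growth factors and cytokine receptors. ADAMTS enzymes cut proteoglycans, procollagens and other matrix substrates, and ADAMTSL proteins are matrix components without protease activity. TIMPs bind the active site of MMPs, and Timp3 also inhibits several ADAM and ADAMTS enzymes. In carcinomas much of this protease supply comes from stromal cells, and decitabine acts by trapping the enzymes that methylate cytosines in CpG dinucleotides.

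The deposited counts summed to 35163420 in the DAC and 34221886 in the Ctrl library. TMM factors (1.07 and 0.936) set each library's effective size, and levels are given as CPM, the counts scaled to that size, so that 1 CPM equals 37.6 counts in DAC and 32.02 in Ctrl. A gene was called higher or lower when it reached 1 CPM in either library, its CPM differed by 2-fold or more between DAC and Ctrl, and the ratio's 95% counting interval (exact, Clopper-Pearson) did not reach 1. Ratios are DAC over Ctrl. Intervals stand in parentheses after the ratios and cover counting error only, since 1 library per group gives no spread between cultures. The sequenced fragments also carry no molecular identifiers. Of 10 leukocyte markers 4 were counted: Cd68 at 470 counts in Ctrl and 809 in DAC (14.7 and 21.5 CPM, not called), Lyz2 at 31 and 17, Ptprc, which defines leukocytes, at 3 and 0, and S100a8 at 0 and 9. Of the listed epithelial markers, Cdh1 and Vil1 were at 0 counts in Ctrl and at 9 and 12 in DAC. Past 1 CPM, 4 of 5 markers, Krt8, Krt19, Krt20 and Lgals4, were higher in DAC, beside 10.8% of all genes past it. Krt8 (5 and 4445 counts) and Krt19 (12 and 58) passed it through DAC alone, so they had to be higher in DAC to be counted. Other genes share 26.9% of the 50-base stretches in the longest transcript of Krt8. The 8 fibroblast markers summed to 1818 CPM in Ctrl and 1158 in DAC, of which Col1a2 alone held 1651 and 973 CPM. Of these markers 6 were past 1 CPM, with 0 called and a median log2 ratio of 0.27. Pdgfra (ratio 1.69), Dcn (1.56), Pdgfrb (1.21) and Col3a1 (1.20) lay above 1, and Col1a2 (0.589) and Col1a1 (0.974) below. The 5 endothelial markers summed to 2.498 and 2.874. The part of these markers in the values below was not tested.

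Of the 31 matrix protease and inhibitor genes that reached 1 CPM in either library, the DAC library had higher levels of 9 and lower levels of 2. The higher genes were Mmp3 and Mmp10, which encode stromelysins, Adam8 and Adam33, Adamts4, Adamts7, Adamts10 and Adamts14, and Timp3. The lower genes were Mmp19 and Adamts6. Over all 13545 genes past the same minimum, 10.8% were called higher and 5.29% lower. Mmp3, Mmp10 and Adamts7 reached 1 CPM in DAC only, so they had to be higher in DAC to be counted at all. Over the 28 members at 1 CPM or more in both libraries, a filter chosen after seeing the data, 6 were higher and 2 lower, against 5.87% and 4.06% of the 12258 genes that passed it. The median log2 ratio of the 31 members was -0.07, beside -0.02 over all genes past the minimum, and it turned positive with library totals (0.12), without a CPM minimum (0.0023) and without genes that share sequence (0.088).

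**Figure D1:**
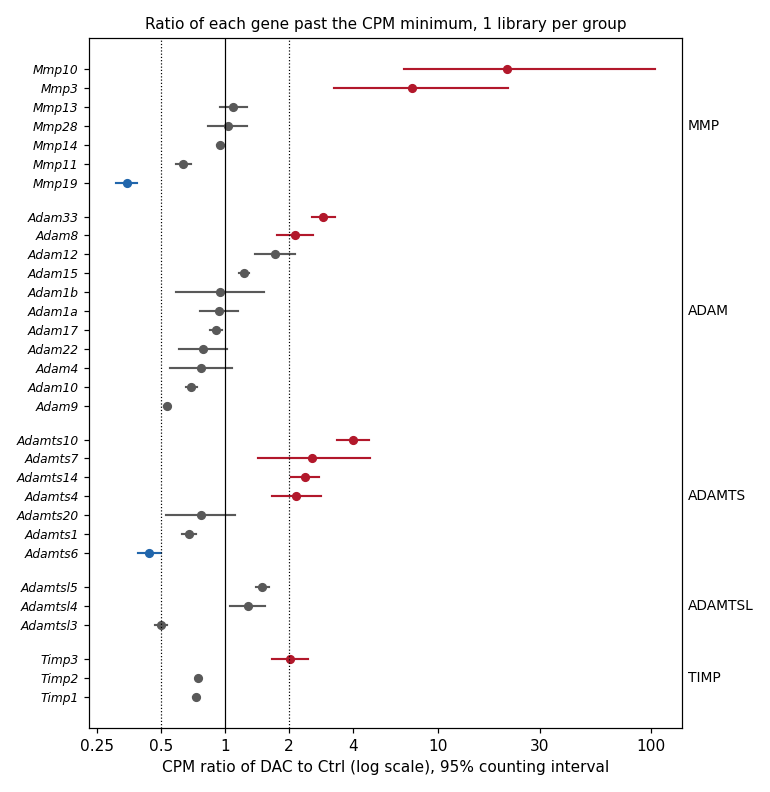
CPM ratio of DAC to Ctrl (x axis, log scale) of the 31 genes past the CPM minimum, by family, with 95% counting intervals as bars. Red marks the 9 genes called higher and blue the 2 called lower, the solid line is a ratio of 1 and the dotted lines are ratios of 0.5 and 2. Mmp10 and Mmp3 lie farthest to the right and have the widest intervals.

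Levels of different genes were compared as CPM per kilobase of exon sequence. By this measure the inhibitor genes Timp1 and Timp2 stood above every protease gene in both libraries. Timp1 was at 265 in Ctrl and 195 in DAC and Timp2 at 137 and 103. The protease gene with the highest level was Adam9, at 76.0 and 40.6, followed by the membrane-anchored Mmp14 at 23.9 and 22.8. The called genes were all below Mmp14, and the highest of them in Ctrl, Mmp19, stood at 9.86 in Ctrl and 3.41 in DAC. Summed over family members, TIMP levels were 402 in Ctrl and 298 in DAC, MMP levels 55.1 and 44.8, ADAM levels 117 and 83.8, ADAMTS levels 15.3 and 15.2 and ADAMTSL levels 18.6 and 17.7. The summed TIMP level was thus 7.30 times the summed MMP level in Ctrl and 6.66 times in DAC, which says nothing of protein amounts.

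**Figure D2:**
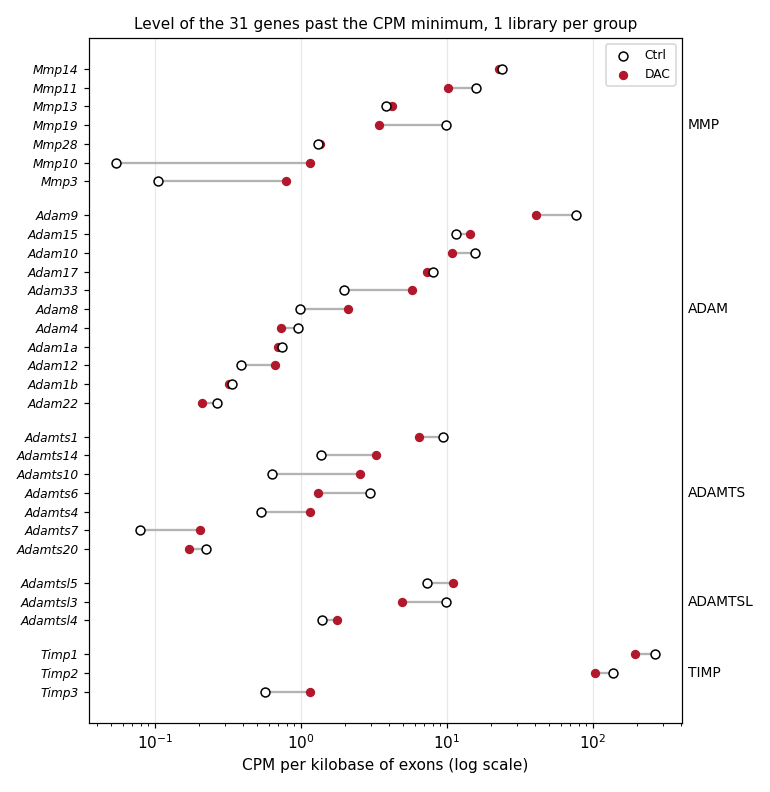
Level in CPM per kilobase of exons (x axis, log scale) of the 31 genes past the CPM minimum in the Ctrl (open circles) and DAC (red points) library, joined by a line and grouped by family. Timp1 and Timp2 lie at the top of the scale in both libraries, and the longest lines belong to Mmp10 and Mmp3.

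In the MMP family, Mmp10 and Mmp3 were higher, Mmp19 was lower, and 4 of 7 genes past the minimum were not called. Among all genes past it, 10.8% were higher and 5.29% lower. Mmp10 encodes stromelysin-2, a secreted protease with many matrix substrates that also activates other MMPs, and it had 3 counts in Ctrl and 74 in DAC, or 0.0937 and 1.97 CPM, a ratio of 21.02 (6.92 to 104). Mmp3, which encodes stromelysin-1, had 6 and 53 counts, or 0.187 and 1.41 CPM, a ratio of 7.53 (3.24 to 21.4). Both genes went from a few counts to just above the minimum. They are neighbors on chromosome 9 of GRCm38, Mmp3 from 7445822 to 7455975 and Mmp10 from 7502352 to 7510240, and other genes share 8.39% and 8.37% of the 50-base stretches in their longest transcripts. At a CPM minimum of 5 neither is counted, which leaves 0 MMP genes higher.

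The same stretch of chromosome 9 holds Mmp13 from 7272514 to 7283331 and Mmp7 from 7692090 to 7699585. Mmp13, a collagenase that cuts fibrillar collagens, was far more abundant than Mmp3 and Mmp10, with 328 counts (10.2 CPM) in Ctrl and 422 (11.2 CPM) in DAC. Its ratio of 1.10 (0.947 to 1.27) did not pass the rule. Mmp7, the matrilysin gene, had 0 and 3 counts. No order of ratios within the cluster is drawn from this, since Mmp3 and Mmp10 passed the minimum through DAC alone.

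The 250 bases before the RefSeq start of these genes (GRCm38.p6) are shown because decitabine acts on CpG sites, which are in capitals, and because the 3 windows share a motif. Each holds a single CpG, against a median of 6 over all 32851 RefSeq windows of this length. Each also holds TGANTCA, the core of AP-1 binding motifs, which reads the same on both strands and begins 63 bases before the start in Mmp10, 46 in Mmp3 and 35 in Mmp13. Of all windows 6.75% contain it, and among the 34 members with a window so do those of Mmp7 and Adam19. A match of letters is not a binding site, and Mmp13 carries the motif without being called. Mmp10 (chr9:7502092-7502341, plus strand), Mmp3 (chr9:7445572-7445821, plus strand) and Mmp13 (chr9:7272264-7272513, plus strand) read 5′ to 3′ as follows.
Mmp10: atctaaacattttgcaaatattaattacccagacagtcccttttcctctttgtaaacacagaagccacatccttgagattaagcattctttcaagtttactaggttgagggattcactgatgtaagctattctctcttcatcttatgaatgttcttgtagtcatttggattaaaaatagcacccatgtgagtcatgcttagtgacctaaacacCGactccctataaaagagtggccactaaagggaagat
Mmp3: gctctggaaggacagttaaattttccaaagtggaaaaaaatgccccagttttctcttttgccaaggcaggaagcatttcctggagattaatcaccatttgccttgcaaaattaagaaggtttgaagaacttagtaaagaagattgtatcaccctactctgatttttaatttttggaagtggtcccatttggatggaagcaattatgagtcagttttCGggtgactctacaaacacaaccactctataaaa
Mmp13: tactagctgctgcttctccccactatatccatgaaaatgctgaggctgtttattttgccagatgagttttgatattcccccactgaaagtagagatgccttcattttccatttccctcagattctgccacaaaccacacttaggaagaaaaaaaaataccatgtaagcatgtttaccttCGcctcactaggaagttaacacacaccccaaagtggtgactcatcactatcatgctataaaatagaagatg

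Mmp19, a secreted MMP of broad tissue distribution, had 1115 counts (34.8 CPM) in Ctrl and 453 (12.1 CPM) in DAC, 2.89-fold lower, with a ratio of 0.346 (0.310 to 0.387). Its call held with every other scaling, with GC centring and with an interval wholly beyond 2-fold. Of its exon bases 22.3% overlap Tmem198b on the opposite strand, which had 304 and 507 counts. The sources used here do not give the strand setting of the counting, so reads of the 2 genes cannot be told apart within that overlap. The MMP with the most counts was Mmp14, the membrane-anchored activator of the gelatinase Mmp2, with 4568 counts (143 CPM) in Ctrl and 5107 (136 CPM) in DAC. Its log2 ratio was -0.07 and became 0.12 by library totals and -0.28 after GC centring, so its direction depends on the scaling. Mmp11, a stromelysin that furin activates, was at 1409 and 1057 counts, a ratio of 0.639 (0.590 to 0.693), and Mmp28, also known as epilysin, at 163 and 197 counts, a ratio of 1.03 (0.833 to 1.28). Mmp2, the substrate of Mmp14, had only 3 and 7 counts.

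In the ADAM family 2 of 11 genes past the minimum were higher and 0 were lower, beside 10.8% and 5.29% of all genes. Adam33, a catalytically active ADAM best known as an asthma susceptibility gene, had 342 counts (10.7 CPM) in Ctrl and 1165 (31.003 CPM) in DAC, a ratio of 2.90 (2.57 to 3.28). Adam8, a sheddase found mainly in leukocytes and in some carcinomas, had 147 counts (4.59 CPM) and 367 (9.77 CPM), a ratio of 2.13 (1.75 to 2.59). Adam33 stayed above 2-fold in every alternative. The log2 ratio of Adam8 was 1.09 and after GC centring 0.88, below the rule, and its interval also reaches under 2.

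The general sheddases differed less. Adam9 had 10013 counts (313 CPM) in Ctrl and 6281 (167 CPM) in DAC, 1.87-fold lower with a ratio of 0.535 (0.518 to 0.552), close to but outside the 2-fold rule. Adam9 thus had the highest level per kilobase of the family in both libraries and a lower one in DAC. Adam10, the main sheddase of Notch and cadherins, had 2454 and 2001 counts, a ratio of 0.695 (0.655 to 0.737). Adam17, which releases TNF and several EGF receptor ligands, had 1838 and 1960 counts, a ratio of 0.909 (0.852 to 0.969), which lies above 1 by library totals and after GC centring. Adam15 was at 2276 and 3297 counts, a ratio of 1.23 (1.17 to 1.303), and Adam12, prominent in tumor stroma and muscle, at 131 and 263 counts, a ratio of 1.71 (1.38 to 2.13). Adam10 and Adam9 thus leaned to Ctrl and Adam12 and Adam15 to DAC without passing the rule. After GC centring the log2 ratio of Adam15 was 0.02 in place of 0.30, so its lean depends on the scaling. Those of Adam9, Adam10 and Adam12 were then -0.79, -0.27 and 0.74.

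The remaining ADAM genes past the minimum were not called. Adam22, a neuronal ADAM without protease activity, had 123 and 114 counts and a ratio of 0.790 (0.607 to 1.03). Adam4, a germline gene, had 76 and 69 counts and a ratio of 0.774 (0.550 to 1.09). Adam1a and Adam1b, of the sperm protein fertilin, had ratios of 0.938 (0.762 to 1.16) and 0.947 (0.588 to 1.53). Adam1a shares 63.7% of its exon bases with Gm42878 and 24.0% with Mapkapk5 on the same strand, so its 178 and 196 counts may hold reads of those genes.

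For Adam8, 250 bases before the RefSeq start (chr7:139992563-139992812, minus strand, read 5′ to 3′) hold 6 CpG sites, equal to the median over all windows.
Adam8: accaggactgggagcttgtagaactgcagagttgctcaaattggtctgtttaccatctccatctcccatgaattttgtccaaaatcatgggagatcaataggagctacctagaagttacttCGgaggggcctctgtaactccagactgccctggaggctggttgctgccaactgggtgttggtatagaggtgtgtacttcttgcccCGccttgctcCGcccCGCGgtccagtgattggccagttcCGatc

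In the ADAMTS family 4 of 7 genes past the minimum were higher, of which Adamts7 passed it through DAC alone, and 1 was lower. The shares over all genes past it were 10.8% and 5.29%. Adamts10, which binds fibrillin microfibrils, had 167 counts (5.21 CPM) in Ctrl and 782 (20.8 CPM) in DAC, a ratio of 3.99 (3.37 to 4.75). Adamts14, which trims the amino-terminal propeptide of fibrillar procollagens, had 227 counts (7.09 CPM) and 633 (16.8 CPM), a ratio of 2.38 (2.04 to 2.78). The intervals of both lie wholly above 2-fold. Adamts4, an aggrecanase, had 82 counts (2.56 CPM) and 207 (5.51 CPM), a ratio of 2.15 (1.66 to 2.81). Adamts7, which cuts cartilage oligomeric matrix protein, had 16 counts (0.4996 CPM) and 48 (1.28 CPM), a ratio of 2.56 (1.43 to 4.82). All 4 had transcripts of high GC content, between 55.2% and 59.5%.

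After GC centring, Adamts14 and Adamts4 no longer passed the rule, with log2 ratios of 0.82 and 0.89 in place of 1.25 and 1.11, while Adamts10 (1.71) and Adamts7 (1.07) did. With intervals from counts divided by 3, Adamts7 lost its call. Of the exon bases of Adamts7, 1.94% overlap Tbc1d2b on the opposite strand, which had 681 and 1236 counts.

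Adamts6, whose product acts on fibrillin and related matrix proteins, had 739 counts (23.1 CPM) in Ctrl and 384 (10.2 CPM) in DAC, 2.26-fold lower with a ratio of 0.443 (0.390 to 0.502). By library totals its log2 ratio was -0.98 and after GC centring -0.92, both short of the rule. The ADAMTS gene with the highest level, the proteoglycanase Adamts1, was at 1598 and 1276 counts, a ratio of 0.680 (0.632 to 0.733), and Adamts20 at 64 and 58 counts, a ratio of 0.772 (0.532 to 1.12). Adamts5, the other main aggrecanase, had 8 counts in Ctrl and 0 in DAC. Adamts4 was thus called higher in DAC, while Adamts5 was under the minimum in both libraries and Adamts1 was not called.

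The window before the start of Adamts14 is among the richest in CpG, with 35 in 250 bases, more than in 97.03% of all windows. The part outside the gene as GENCODE draws it (chr10:61273439-61273669, minus strand, read 5′ to 3′) is printed with its 32 CpG sites in capitals.
Adamts14: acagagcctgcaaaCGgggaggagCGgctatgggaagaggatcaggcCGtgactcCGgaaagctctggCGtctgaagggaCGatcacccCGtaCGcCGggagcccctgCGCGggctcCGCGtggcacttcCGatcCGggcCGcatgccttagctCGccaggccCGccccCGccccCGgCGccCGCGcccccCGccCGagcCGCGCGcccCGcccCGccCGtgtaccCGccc

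None of 3 ADAMTSL genes past the minimum was called under the 2-fold rule. Adamtsl3 came closest, with 2449 counts (76.5 CPM) in Ctrl and 1438 (38.3 CPM) in DAC, a ratio of 0.5004 (0.469 to 0.534). Adamtsl5 stood at 1101 and 1940 counts, with a ratio of 1.502 (1.39 to 1.62). Adamtsl4, which supports fibrillin microfibrils in the eye, had 186 and 279 counts, a ratio of 1.28 (1.06 to 1.55). After GC centring the log2 ratio of Adamtsl4 was -0.07 in place of 0.35, and that of Adamtsl5 0.30 in place of 0.59. The gene with the highest level in this family was Adamtsl3 in Ctrl (9.88 CPM per kilobase, Adamtsl5 7.28) and Adamtsl5 in DAC (10.9, Adamtsl3 4.94). Adamtsl2, which is mutated in geleophysic dysplasia, had 5 counts in each library.

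Among the inhibitors, Timp3 was higher and Timp1 and Timp2 were not called. Timp3, which is held in the matrix and has a promoter often methylated in carcinomas, had 148 counts (4.62 CPM) in Ctrl and 350 (9.31 CPM) in DAC, a ratio of 2.02 (1.66 to 2.46). This ratio lies at the edge of the rule, and the call was lost when the whole interval had to lie beyond 2-fold, though it held with every scaling and after GC centring (log2 ratio 1.09). Of its exon bases 21.3% overlap Syn3 on the opposite strand, which had 25 and 3 counts. Timp1 had 7522 counts (235 CPM) in Ctrl and 6491 (173 CPM) in DAC, a ratio of 0.735 (0.711 to 0.760), and Timp2, which also takes part in the activation of Mmp2 by Mmp14, 17139 counts (535 CPM) and 15042 (400.3 CPM), a ratio of 0.748 (0.732 to 0.765). Both stayed below 1 by library totals and after GC centring. Timp4 had 0 and 3 counts.

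The windows of Timp3 and Timp1 are shown side by side as those of the TIMP gene called higher and of the TIMP gene with the highest level. In 250 bases Timp3 has 18 CpG sites, more than 78.3% of all windows, and Timp1 on chromosome X has 6, the median. For Timp3 the 210 bases outside the gene are printed, with 13 CpG sites (chr10:86300162-86300371, plus strand), and for Timp1 all 250 (chrX:20869916-20870165, plus strand).
Timp3: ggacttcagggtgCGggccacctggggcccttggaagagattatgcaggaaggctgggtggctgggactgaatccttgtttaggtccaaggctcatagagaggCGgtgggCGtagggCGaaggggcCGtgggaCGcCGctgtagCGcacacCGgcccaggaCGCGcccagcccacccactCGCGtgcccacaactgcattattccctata
Timp1: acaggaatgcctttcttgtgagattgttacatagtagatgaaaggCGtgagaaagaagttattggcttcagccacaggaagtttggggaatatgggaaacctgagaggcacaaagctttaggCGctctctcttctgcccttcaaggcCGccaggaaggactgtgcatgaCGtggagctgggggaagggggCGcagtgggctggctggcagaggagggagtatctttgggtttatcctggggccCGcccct

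Across the 5 higher genes with a window, CpG sites per 250 bases ranged from 1 in Mmp3 and Mmp10 to 35 in Adamts14, with a median of 6, and the 17 genes past the minimum that were not called ranged from 1 to 39 with a median of 17. Both sets spanned nearly the whole range of the members, and CpG counts in these windows do not measure methylation, which was not analysed here. Mmp3 and Mmp10 passed the minimum through DAC alone, so they could only enter as higher. The higher genes without them, Adam8, Timp3 and Adamts14, had 6, 18 and 35 sites. No difference between the medians is therefore drawn. Windows for Adam33, Adamts4, Adamts6, Adamts7, Adamts10 and Mmp19 were not used here.

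The 19 members under the minimum had at most 33 counts. Of these, 14 had more counts in DAC, 4 had more in Ctrl and 1 had equal counts, while of all 10678 genes under the minimum 60.5% had more counts in DAC and 30.4% had fewer. Scaled to library size, 13 of the 19 had the higher CPM in DAC and 6 in Ctrl, beside 58.3% and 41.7% of all genes under the minimum, so this split lies near that of all such genes. Their counts summed to 81 in Ctrl and 219 in DAC. Mmp25, a glycosylphosphatidylinositol-anchored MMP of leukocytes, had 0 counts in Ctrl and 26 in DAC, 7.39-fold higher against a floor of 3 counts, with an interval from 5.59. Against the same floor, the gelatinase gene Mmp9 had 0 and 14 counts, 3.98-fold higher (interval from 2.83), and Adamts12 had 0 and 10, 2.84-fold (from 1.91). Adam19 had 0 and 9, 2.56-fold (from 1.68), and Mmp17 had 0 and 6, 1.70-fold (from 1.003). Mmp24, a membrane-anchored MMP of neurons, stood at 2 and 33 counts, with a ratio of 14.1 (3.60 to 121), and Adamts17 had 1 and 23, a ratio of 19.6 (3.18 to 807). These genes stood at a handful of counts in Ctrl and stayed under 1 CPM in DAC.

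In the other direction, Adamts5 was 3.13-fold lower against a floor of 3 counts in DAC, with an interval from 2.003. Adam2, a sperm surface gene, had 3 and 0 counts. Mmp7, Mmp21 and Timp4 had 0 counts in Ctrl and 3 in DAC, which is at the floor. The other genes were Mmp23 (13 and 31 counts), Mmp2, Adam11 (7 and 8), Adam21 (14 and 18), Adam32 (8 and 6), Adamts13, the protease of von Willebrand factor (17 and 14), and Adamtsl2. In all, 8 of the 50 members were at 0 counts in Ctrl and 2 in DAC, while 14.5% of the 24223 genes were at 0 in Ctrl and 6.48% in DAC.

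**Figure D3:**
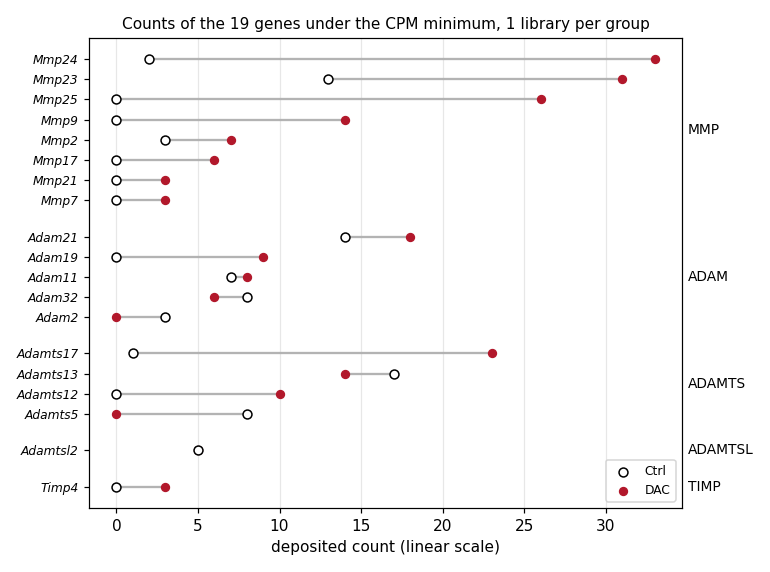
Deposited counts (x axis, linear scale) of the 19 genes under the CPM minimum in the Ctrl (open circles) and DAC (red points) library, by family. The red point lies to the right of the open circle in 14 genes, with the largest DAC counts in Mmp24, Mmp23, Mmp25 and Adamts17, and the circles of Adamtsl2 coincide at 5.

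The ratio moved with transcript GC content over all genes. The median log2 ratio was -0.37 in the bin of lowest GC content and 0.41 in the highest of 20 bins of genes, and the share called higher was 5.18% and 20.1%. Over 13518 genes past the minimum the correlation of GC content with the log2 ratio was r = 0.23 (Spearman's rho 0.33), and over the 31 members r = 0.21 (rho 0.40), where genes come from the same pair of libraries and are not replicates. The 9 higher members had a median GC content of 55.2%, the 2 lower ones 46.0% and the 20 not called 49.8%. Mmp3 (45.9%), Mmp10 (46.0%) and Timp3 (46.8%) were the higher members of lowest GC content, and their log2 ratios were larger after centring, at 3.03, 4.51 and 1.09. The part of GC content in the ratios was not tested.

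**Figure D4:**
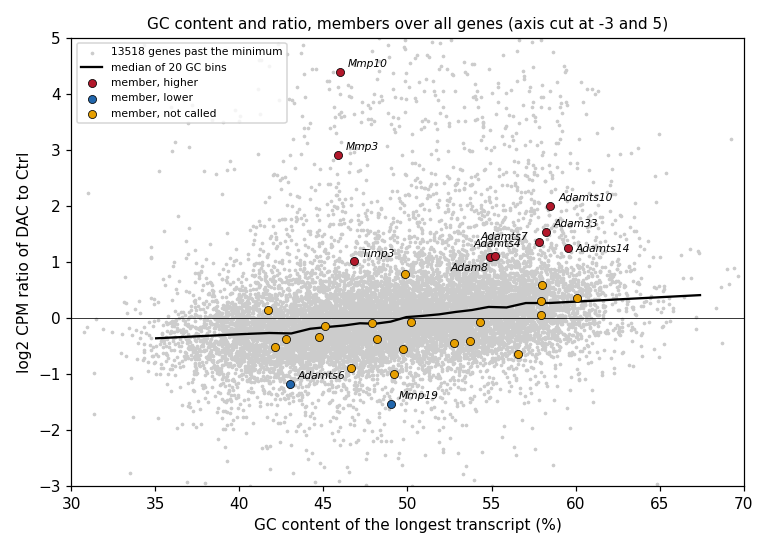
GC content of the longest transcript (x axis, percent) against the log2 CPM ratio of DAC to Ctrl (y axis) for genes past the CPM minimum (gray), with the median of 20 GC bins as a black line, higher members in red, lower members in blue and members not called in orange. The line climbs from -0.37 to 0.41, 6 of the 9 red points lie at 54.9% GC or more, and 111 genes fall outside the axes.

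Genes that activate, anchor or otherwise inhibit these proteases were taken from lists. Of 12 activators and cofactors past the minimum, 2 were higher and 0 lower, with a median log2 ratio of 0.35. Over all genes past it, 10.8% were higher and 5.29% lower, with a median of -0.02. Plau, the urokinase that generates plasmin, had 0 counts in Ctrl and 75 in DAC, 21.3-fold higher against 3 counts (interval from 16.9). It reached 1 CPM through DAC alone. Tspan5, a tetraspanin that escorts Adam10, was counted 528 and 1672 times, for a ratio of 2.70 (2.45 to 2.98). Plaur, the receptor of Plau, was the most abundant of the list by CPM, with 12096 counts (378 CPM) and 9108 (242 CPM), a ratio of 0.642 (0.624 to 0.659), and Furin, which removes the propeptides of many MMPs and ADAMs, had a ratio of 0.815 (0.784 to 0.847). The urokinase gene and its receptor thus differed in direction, with only Plau called.

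Of 4 other inhibitors and clearance receptors past the minimum, 0 were called. Lrp1, which takes up protease complexes from the cell surface, was the most abundant, at 32531 and 30701 counts and a ratio of 0.804 (0.792 to 0.817). Reck, a membrane-anchored MMP inhibitor, had 286 and 169 counts and a ratio of 0.504 (0.414 to 0.611), just short of the rule. Of 7 related metalloproteases and matrix partners past the minimum, 3 were higher and 0 lower, with a median of 0.74. The values over all genes past it were 10.8%, 5.29% and -0.02. Bmp1, the procollagen C-proteinase, was counted 837 and 2123 times, a ratio of 2.16 (1.99 to 2.34), and Pcolce, its enhancer protein, 9370 and 23039 counts, a ratio of 2.10 (2.05 to 2.15). Pappa2, a protease of insulin-like growth factor binding proteins, was counted 15 and 50 times, also past the minimum in DAC alone, with a ratio of 2.84 (1.57 to 5.45). Pcolce2, a related gene of the list, had 3 and 4 counts. After GC centring Bmp1 and Pcolce had log2 ratios of 0.83 and 0.85 and did not pass the rule.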

How the data were processed

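RNA sequencing of 1 DAC-treated and 1 control culture of CT26 cells was used. The files the authors deposited hold counts per Ensembl gene, whole numbers whose sums differ between libraries. Tools named in the submitters' processing notes are STAR 2.5.3a and StringTie 1.3.1c, and also Cufflinks, DESeq, FastQC and Trim Galore, with the build mm10. The paper's methods name poly-A selection with a TruSeq kit, CASAVA, TopHat and Bowtie. Which route made the counts, and its strand setting, are not given in the sources used here.

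Symbols, positions (GRCm38, the assembly of mm10) and exon lengths came from GENCODE M21, where 24122 gene identifiers matched and 101 did not. Scaling used edgeR 4.0.16 (TMM) in R 4.3.3, and ratios and intervals scipy 1.17.1, pandas 2.3.3 and numpy 2.4.6 under Python 3.11.15. The code was tested on simulated libraries. A count of 0 was taken as 3 counts in ratios but not in intervals, and no fold was given where neither count exceeded 3. GC centring took off each gene's log2 ratio the median of its bin among 20 bins of longest-transcript GC content, less the median of all genes. Sequences came from RefSeq windows on GRCm38.p6, matched by symbol for 34 of 50 members, and the 50 bases after each start were left out.

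The members, gene lists and calls were chosen with earlier results of these data known. Named were all members past the CPM minimum, all Timp genes, members at 0 counts in one library and above 3 in the other, and of each list of protease partners the called genes and the most abundant one, while the other low members, Furin, Reck, Pcolce2 and single cell type markers, and the windows of Mmp13 and Timp1, were chosen after their values were seen. The alternatives tried were upper-quartile factors, size factors of DESeq2 1.42.0, library totals, no CPM minimum or one of 5, a fold of 1.5, an interval beyond 2-fold, intervals from counts divided by 3, GC centring and leaving out genes that share 10% or more of their 50-base stretches.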

Additional observations from a re-analysis of the deposited data

How the results depend on the processing

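No paired analysis was possible because each group has 1 library, and for the same reason no replicate could be left out. Calls of all 11 members were the same with DESeq2 size factors, with upper-quartile factors and without genes that share sequence. Library totals shifted the median of all genes from -0.018 to 0.177 and left 1 member lower (Mmp19) and 0 ADAMTS genes lower, with 9 higher. Of all genes past the minimum, 13.9% were then higher and 3.37% lower. Without a CPM minimum 16 of 50 members were higher, 6 of them MMP genes, and 3 were lower, 2 of them ADAMTS genes. Over all genes 11.0% were higher and 5.11% lower without it. With a CPM minimum of 5, and with 1 CPM required in both libraries (chosen after seeing the data), 0 MMP genes were higher. Of all genes past these minimums, 6.34% and 5.87% were higher. With the whole interval beyond 2-fold 5 members were higher and 1 lower, beside 7.21% and 2.98% of all genes. Among these members 1 ADAM, 2 ADAMTS and 0 TIMP genes were higher and 0 ADAMTS genes lower. At a fold of 1.5, 11 of 31 members were higher and 5 lower, beside 19.3% and 15.2% of all genes past the minimum. The lower members included 2 MMP, 1 ADAM and 1 ADAMTSL genes, and 1 ADAMTSL gene was higher. Thus 11 of 16 calls were higher, against 9 of 11 under the 2-fold rule. Over all genes, 2612 were higher and 2059 lower at 1.5-fold, and 1468 and 716 under the 2-fold rule. After GC centring 6 members were higher and 1 lower, beside 10.03% and 4.58% of all genes. Among these members 1 ADAM and 2 ADAMTS genes were higher and 0 ADAMTS genes lower. The lost calls were those of Adam8, Adamts4, Adamts14 and Adamts6. The median log2 ratio of the members was 0.12 by library totals, -0.048 with DESeq2 size factors, -0.056 with upper-quartile factors, 0.0023 without a minimum, -0.014 at a CPM minimum of 5, 0.088 without genes that share sequence and -0.085 with the minimum in both libraries, so its sign depends on the setting. No member called higher or lower changed direction under library totals, size factors or GC centring. At these depths a gene under 1 CPM rests on less than 37.6 counts in DAC, and differences between cultures cannot be measured with 1 library each.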

Other observations

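Some of the members that lie next to each other are given as values here, and other neighboring pairs are left out. On chromosome 16 of GRCm38, the minus-strand genes Adamts1 (85793827 to 85803113) and Adamts5 (85856173 to 85901828) had 1598 and 8 counts in Ctrl and 1276 and 0 in DAC. The counting interval of the Adamts5 ratio ends at 0.499, and that of Adamts1 runs from 0.632 to 0.733. No order of the ratios is drawn, since Adamts5 was under the minimum in both libraries. On chromosome 8, the minus-strand genes Adam32 (24836140 to 24948804), a germline gene, and Adam9 (24949611 to 25016927) had 8 and 10013 counts in Ctrl and 6 and 6281 in DAC, and the interval of the Adam32 ratio (0.183 to 2.10) contains that of Adam9.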
